A study of Mus musculus with 12 samples.

Results

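The 7 CXC chemokine ligand genes Cxcl1, Cxcl2, Cxcl3, Cxcl9, Cxcl10, Cxcl12 and Cxcl16 were followed in eosinophils sorted from 2 fat depots and from blood. They were taken by name, as 7 of 54115 annotated genes, and all 7 were among the 15367 genes with enough reads to be tested. Eosinophils are granulocytes that leave the blood to settle in tissues, fat among them. The 12 libraries came from 5 wild-type, untreated male FVB/NJ mice, which ate chow and were 20 weeks old. Each of the 3 groups held 4 libraries: gonadal white adipose tissue (mice 2846, 2807, 2683 and 2668), subcutaneous white adipose tissue (mice 2846, 2807, 2771 and 2668) and blood (mice 2807, 2771, 2683 and 2668). Values per library follow these orders of mice. Sorted cells were alive and positive for CD45, CD11b and Siglec-F; F4/80 was stained but is not named in the gate. Both fat depots were digested for 45 min at 37 C in collagenase type II (1 mg/mL), and the labels describe no digestion of blood. The tissue and its digestion therefore cannot be told apart in any comparison of fat with blood.

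Chemokines are small secreted proteins that direct the movement of leukocytes, and the CXC family is named for a single residue between its first cysteines. Cxcl1, Cxcl2 and Cxcl3 act on Cxcr2 and draw neutrophils, and their genes are classical targets of NF-kB. Cxcl9 and Cxcl10 act on Cxcr3 on activated T cells and NK cells and are induced by interferons. Cxcl12 is a largely constitutive product of stromal cells that holds Cxcr4-bearing leukocytes in place, and Cxcl16 is a membrane-bound ligand of Cxcr6 that can be shed by Adam10.

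Of the 7 genes, 5 lie on chromosome 5, Cxcl12 on chromosome 6 and Cxcl16 on chromosome 11. Sequences of 250 bases that end just before the gene's RefSeq start were available for 6 of the 7 genes from RefSeq (build GRCm38.p6), and 5 are shown because they carry motifs of the 2 pathways named above. Cxcl1 (chr5:90890995-90891244), Cxcl2 (chr5:90903649-90903898) and Cxcl3 (chr5:90785851-90786100) are read on the plus strand, and Cxcl9 (chr5:92328080-92328329) and Cxcl10 (chr5:92348890-92349139) on the minus strand. Capitals mark GGAATTTCC and the looser GGGNNTTNC, forms of the NF-kB motif that may overlap, and GAAANNGAA, an interferon-response form, each searched on both strands. All run 5′ to 3′. The RefSeq start lies 28 bases inside the GENCODE gene for Cxcl2 and 4 bases inside it for Cxcl1, so those windows hold a few bases of the GENCODE gene, and distances below are from the RefSeq start.
Cxcl1: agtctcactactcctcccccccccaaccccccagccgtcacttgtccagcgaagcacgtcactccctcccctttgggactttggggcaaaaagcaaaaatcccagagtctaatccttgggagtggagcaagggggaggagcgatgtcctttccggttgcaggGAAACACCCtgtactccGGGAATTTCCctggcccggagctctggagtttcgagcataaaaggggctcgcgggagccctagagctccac
Cxcl2: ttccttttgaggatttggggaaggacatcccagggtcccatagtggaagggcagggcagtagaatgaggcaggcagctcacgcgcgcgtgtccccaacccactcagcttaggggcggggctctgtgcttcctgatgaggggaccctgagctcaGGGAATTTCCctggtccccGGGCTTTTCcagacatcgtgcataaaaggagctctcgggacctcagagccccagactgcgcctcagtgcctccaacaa
Cxcl3: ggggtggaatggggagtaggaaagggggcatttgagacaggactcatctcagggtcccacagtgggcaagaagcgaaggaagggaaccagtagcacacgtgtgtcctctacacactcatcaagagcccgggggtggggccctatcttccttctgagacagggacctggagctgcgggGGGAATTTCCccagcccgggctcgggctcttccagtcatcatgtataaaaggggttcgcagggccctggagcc
Cxcl9: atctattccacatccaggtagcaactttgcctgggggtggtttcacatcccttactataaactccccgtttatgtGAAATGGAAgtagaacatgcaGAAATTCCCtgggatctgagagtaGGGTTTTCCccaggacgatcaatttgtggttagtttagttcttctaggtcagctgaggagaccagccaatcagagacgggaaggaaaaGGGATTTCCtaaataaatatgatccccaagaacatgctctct
Cxcl10: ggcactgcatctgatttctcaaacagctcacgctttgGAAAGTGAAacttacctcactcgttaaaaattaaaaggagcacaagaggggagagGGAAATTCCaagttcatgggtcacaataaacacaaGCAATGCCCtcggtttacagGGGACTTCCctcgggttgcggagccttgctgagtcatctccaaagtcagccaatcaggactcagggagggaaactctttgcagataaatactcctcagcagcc

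The run GGAATTTCC stood in 4 of the 6 promoters (Cxcl1, Cxcl2, Cxcl3 and Cxcl10) and in 94 of 32851 RefSeq promoters of the same length (0.286%). In Cxcl1, Cxcl2 and Cxcl3 it lay on the gene's own strand and ended 62, 88 and 64 bases before the RefSeq start. The looser form GGGNNTTNC stood in 5 of the 6 and in 13% of all promoters, and Cxcl12 was the gene without it. GAAANNGAA was found in Cxcl9 (bases -175 to -167) and Cxcl10 (bases -213 to -205) and in 7.13% of all promoters. The AP-1 form TGANTCA, not capitalised, was found in Cxcl10 alone among the 6, at bases -74 to -68, against 6.75% of all promoters. The 9-letter motifs were cut to that length after matches had been seen, so their counts are no test against the shares of all promoters. Cxcl1, Cxcl2 and Cxcl3 also lie close together on chromosome 5, and their matches may not be independent. These are matches of letters in a window and say nothing of which factors were bound.

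The libraries held 12477671 to 23734940 estimated reads, except for the subcutaneous library of mouse 2846 with 4379954. Mitochondrial ribosomal RNA held 28.1% of that library and 4.66% to 8.79% of each remaining one. Levels are given as CPM, read counts scaled to library size; 3 reads were worth 0.898 CPM in that library and 0.118 to 0.238 CPM elsewhere. Reads of 8 genes listed as eosinophil markers were examined, which is no test of the purity of the sorted cells. Siglecf averaged 341 ± 138 CPM in gonadal, 307 ± 142 CPM in subcutaneous and 273 ± 44.3 CPM in blood libraries (SD, n = 4 each). Ccr3, Il5ra, Itgam, Ptprc, Adgre1, Epx and Prg2 also had reads in all 3 groups, although the granule genes Epx and Prg2 stayed below 5 CPM in each group's mean. Ptprc, Itgam and Adgre1 are shared with other leukocytes, so their reads do not set eosinophils apart from these. Some markers listed for other cells lay above Siglecf in some groups. The monocyte marker Fn1 averaged 2820 CPM in gonadal (626 to 6195 CPM), 251 CPM in subcutaneous and 519 CPM in blood libraries. The neutrophil marker Retnlg averaged 2582 CPM in blood, 257 CPM in gonadal and 334 CPM in subcutaneous libraries. The macrophage marker Mrc1 averaged 469 CPM in gonadal and 657 CPM in subcutaneous libraries. Others were low, such as the neutrophil marker Ly6g with 0 reads in both fat groups and a mean of 0.943 CPM in blood. No eosinophil marker rose in either comparison of fat with blood, and 3 of 8 fell in each (Ccr3, Itgam and Ptprc). The fall of Ccr3 in gonadal fat was lost with the mouse as a block (edgeR adjusted p = 0.0513), and it held in 6 of 12 fits without a library in gonadal and 7 of 12 in subcutaneous fat; that of Ptprc held in 11 and 7 of 12.

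Reads of 6 of the 7 ligands were higher in eosinophils of each fat depot than in those of blood. In gonadal against blood eosinophils, 6 members rose and 0 fell, where 15.4% of all tested genes rose and 11.6% fell (edgeR quasi-likelihood test, Benjamini-Hochberg adjusted p below 0.05). In subcutaneous against blood eosinophils, 6 rose and 0 fell, against 15.4% and 11.4% of all genes. The members' median log2 fold change was 5.43 in gonadal and 5.53 in subcutaneous against blood eosinophils, where the medians over all tested genes were 0.076 and 0.066. All gonadal libraries lay above all blood libraries for 6 of 7 members and for 18.6% of all tested genes, and all subcutaneous libraries lay above all blood libraries for 5 of 7 members and for 13.8% of all tested genes. The reverse held for 0 members in either comparison, and for 17.7% of all genes in gonadal and 15.7% in subcutaneous against blood eosinophils. Blood held 6 to 18 reads in all of Cxcl1, Cxcl3, Cxcl9 and Cxcl10, and Cxcl12 had 0 reads in 3 of 4 blood libraries. Genes with so few blood reads were tested mainly for their reads in fat and had little room to fall. The counts of 0 members that fell were thus largely set in advance, and the shares and medians of all genes are no like measure. The 2 comparisons share the blood libraries. In bulk RNA of this kind, fewer cells of a type and less RNA per cell cannot be told apart. The plot of CPM by library shows all values.

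**Figure D1:**
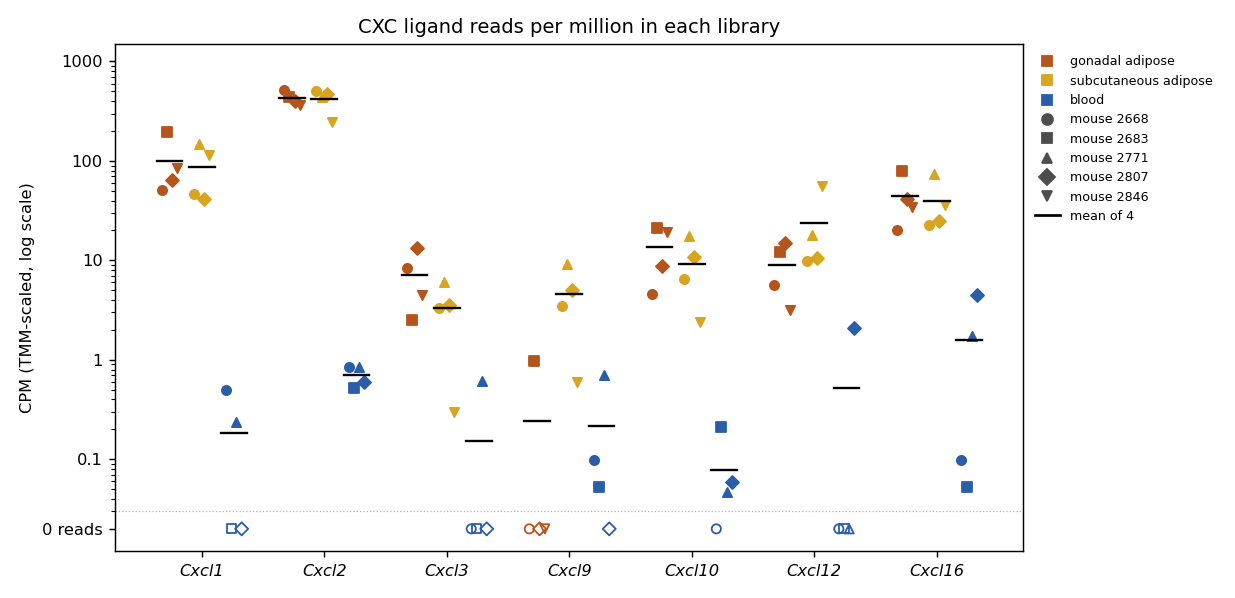
CPM (log scale, TMM-scaled library sizes) of the 7 CXC ligands in each of 12 libraries, coloured by group and shaped by mouse; horizontal lines are means of 4 and open symbols are libraries with 0 reads. Cxcl2 lies between 249 and 514 CPM in every fat library and below 1 CPM in every blood library, whereas Cxcl9 is at 0 reads in 3 of 4 gonadal libraries.

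Cxcl2 (ENSMUSG00000058427, chr5:90903871-90905938, plus strand), a neutrophil attractant, was the most abundant member in both depots. It had 367, 396, 443 and 514 CPM in gonadal libraries, 249, 469, 439 and 508 CPM in subcutaneous libraries, and 0.593, 0.845, 0.524 and 0.843 CPM in blood libraries. Every fat library was high, every blood library was low, and the lowest subcutaneous library, that of mouse 2846, still stood 295-fold above the highest blood library. The means were 430.3 ± 64.3 CPM in gonadal, 416 ± 115 CPM in subcutaneous and 0.702 ± 0.167 CPM in blood eosinophils (SD, n = 4 each). The log2 fold change was 9.24 (SE 0.32; edgeR adjusted p = 6.71e-09) for gonadal against blood and 9.19 (SE 0.32; edgeR adjusted p = 7.01e-09) for subcutaneous against blood. Cxcl2 ranked 1 by p-value among all 15367 genes in both comparisons. With protein-coding transcripts alone its gonadal value was 8.49, a change of more than 1.5-fold, and it passed the threshold with each library left out in turn.

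Cxcl1 (ENSMUSG00000029380, chr5:90891241-90893115, plus strand), also a ligand of Cxcr2, followed at a lower level. It had 85.4, 63.7, 196 and 50.9 CPM in gonadal libraries, 115, 41.2, 147 and 46.4 CPM in subcutaneous libraries, and 0, 0.235, 0 and 0.496 CPM in blood libraries. The groups did not overlap, and the blood values rested on 5 reads in mouse 2771 and 10 reads in mouse 2668. The highest fat values were those of mouse 2683 in gonadal and mouse 2771 in subcutaneous fat. The log2 fold change was 8.96 (SE 0.93; edgeR adjusted p = 8.15e-05) for gonadal against blood and 8.78 (SE 0.92; edgeR adjusted p = 9.48e-05) for subcutaneous against blood. Without the blood library of mouse 2668 the values were 10.005 for gonadal and 9.82 for subcutaneous against blood, and without the gonadal library of mouse 2683 the gonadal value was 8.36.

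Cxcl3 (ENSMUSG00000029379, chr5:90786103-90789600, plus strand), the remaining Cxcr2 ligand, had far fewer reads. It had 4.48, 13.3, 2.51 and 8.35 CPM in gonadal libraries, 0.299, 3.57, 6.07 and 3.31 CPM in subcutaneous libraries, and 0, 0.611, 0 and 0 CPM in blood libraries. Gonadal and blood libraries did not overlap, whereas the subcutaneous library of mouse 2846, with 1 read, lay below the blood library of mouse 2771. The 13 reads of that blood library were all assigned to its retained-intron transcript. The log2 fold change was 5.43 (SE 1.28; edgeR adjusted p = 0.00897) for gonadal against blood and 4.36 (SE 1.24; edgeR adjusted p = 0.0217) for subcutaneous against blood. Without the blood library of mouse 2771 the blood group had 0 reads, and Cxcl3 was at least 120-fold higher in gonadal and at least 77.3-fold higher in subcutaneous eosinophils (floor of 3 counts over the group). With protein-coding transcripts alone the log2 values were 9.24 and 8.56, and with the mouse as a block they were 7.75 and 5.35; over all 22 alternatives they ran from 4.93 to 9.81 and from 3.90 to 8.74. The subcutaneous call was lost without blood mouse 2683 (edgeR adjusted p = 0.0549), blood mouse 2668 (0.0539) or subcutaneous mouse 2771 (0.0504). Cxcl2 and Cxcl3 share some sequence: 7.59% of the 31-base words of Cxcl2 transcripts and 4.56% of those of Cxcl3 occur in the other gene, so a part of their reads is uncertain between these genes. Cxcl1 shared no such word with any gene.

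Cxcl10 (ENSMUSG00000034855, chr5:92346638-92348889, minus strand), an interferon-inducible attractant of T cells, was higher in both depots. It had 19.4, 8.86, 21.2 and 4.57 CPM in gonadal libraries, 2.40, 10.8, 17.6 and 6.48 CPM in subcutaneous libraries, and 0.0593, 0.0470, 0.210 and 0 CPM in blood libraries. All fat libraries lay above all blood libraries, where the 4 libraries together held 6 reads. The log2 fold change was 7.30 (SE 0.91; edgeR adjusted p = 0.000173) for gonadal against blood and 6.79 (SE 0.90; edgeR adjusted p = 0.000284) for subcutaneous against blood. With protein-coding transcripts alone these were 4.39 (edgeR adjusted p = 0.0210) and 5.64, and without blood mouse 2683 they were 8.32 and 7.80. Cxcl10 lies wholly inside Art3 on the opposite strand, and no source used here says whether counting used strand; Art3 itself held 126 reads over all libraries.

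Cxcl9 (ENSMUSG00000029417, chr5:92321347-92328079, minus strand), the other Cxcr3 ligand measured, did not pass the threshold in any comparison. It had 0, 0, 0.982 and 0 CPM in gonadal libraries, 0.599, 5.07, 9.17 and 3.46 CPM in subcutaneous libraries, and 0, 0.704, 0.0524 and 0.0992 CPM in blood libraries. Subcutaneous libraries were the highest, with 3 of 4 above every blood and gonadal library, and the library of mouse 2846, with 2 reads, within the range of the others. Gonadal and blood eosinophils differed by a log2 fold change of 0.27 (95% interval -2.82 to 3.37; edgeR adjusted p = 0.911). Subcutaneous and blood eosinophils differed by 4.36 (95% interval 0.98 to 7.75; edgeR adjusted p = 0.0551), and in all 3 mice with both libraries the subcutaneous library was higher. With the mouse as a block the subcutaneous difference was 5.99 and passed the threshold (edgeR adjusted p = 0.0215), as it did without blood mouse 2771 (0.0403), gonadal mouse 2683 (0.0300) or subcutaneous mouse 2846 (0.0425). T cell markers were also highest in subcutaneous libraries: their 7 genes summed to 1.77 to 5.33 CPM in gonadal, 25.3 to 219 CPM in subcutaneous and 9.22 to 30.1 CPM in blood libraries, and none had 0 reads over a group. Of the 7, 0 rose and 4 fell in gonadal, and 3 rose and 0 fell in subcutaneous against blood eosinophils. Mouse 2771 had the highest subcutaneous value of both Cxcl9 and the T cell sum. The part of such cells in the Cxcl9 reads was not tested.

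Cxcl12 (ENSMUSG00000061353, chr6:117168535-117181367, plus strand), the stromal ligand of Cxcr4, had its highest value in a single subcutaneous library. It had 3.19, 15.1, 12.1 and 5.67 CPM in gonadal libraries, 56.0, 10.7, 18.1 and 9.86 CPM in subcutaneous libraries, and 2.08, 0, 0 and 0 CPM in blood libraries. The groups of fat and blood did not overlap, the subcutaneous library of mouse 2846 stood above all others, and all 35 blood reads came from mouse 2807. The log2 fold change was 4.16 (SE 1.33; edgeR adjusted p = 0.0384) for gonadal against blood and 5.53 (SE 1.40; edgeR adjusted p = 0.0149) for subcutaneous against blood. The gonadal call was lost with the mouse as a block (edgeR adjusted p = 0.0598, log2 fold change 4.84) and in 7 of 12 fits without a library. Those were the fits without blood mouse 2771, 2683 or 2668, gonadal mouse 2807, 2683 or 2668, or subcutaneous mouse 2771 (edgeR adjusted p = 0.0511 to 0.0862). Without blood mouse 2807 the blood group had 0 reads, and Cxcl12 was at least 188-fold higher in gonadal and at least 330.3-fold higher in subcutaneous eosinophils. Without subcutaneous mouse 2846 the subcutaneous value was 4.71. With limma the values were 7.11 for gonadal and 8.08 for subcutaneous against blood.

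Markers of adipose fibroblasts, cells known to make Cxcl12 and to lack the sorted surface proteins, stood beside these values. Of 10 such markers, 9 rose in gonadal and 8 in subcutaneous against blood eosinophils. They summed to 174 to 559 CPM in gonadal, 266 to 4296 CPM in subcutaneous and 122 to 204 CPM in blood libraries, and none had 0 reads over a group. The highest sum was that of subcutaneous mouse 2846, the library with the most Cxcl12, and the other subcutaneous sums were at most 446 CPM. That library also had the highest sums of endothelial cell (205 CPM) and adipocyte (123 CPM) markers. In gonadal fat the highest fibroblast sum was that of mouse 2683, whereas mouse 2807 had more Cxcl12 (15.1 against 12.1 CPM). In blood nearly the whole sum was Pi16, at 157 of 161 CPM, and the collagen gene Col3a1 had 5.04 CPM in blood mouse 2807 and at most 0.470 CPM in the other blood libraries. Pi16 did not follow Col3a1 and was lowest in blood mouse 2807 (110 CPM). Dcn had 0.059 CPM in blood mouse 2807, 0.047 CPM in mouse 2771 and 0 in the remaining blood libraries, too low to rank them. The highest blood sum was that of mouse 2668, which had 0 reads of Cxcl12. Pi16 gave 203.8 of its 204.3 CPM, so that sum says little of the other markers. The part of fibroblasts, endothelial cells or adipocytes in the Cxcl12 reads was not tested.

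Cxcl16 (ENSMUSG00000018920, chr11:70453983-70459984, minus strand), the membrane-bound ligand of Cxcr6, rose in both depots. It had 34.1, 41.5, 80.1 and 20.0 CPM in gonadal libraries, 35.9, 24.6, 74.6 and 22.8 CPM in subcutaneous libraries, and 4.45, 1.74, 0.0524 and 0.0992 CPM in blood libraries. Fat and blood did not overlap, and the blood values rested on 75, 37, 1 and 2 reads. The log2 fold change was 4.81 (SE 1.03; edgeR adjusted p = 0.00656) for gonadal against blood and 4.65 (SE 1.02; edgeR adjusted p = 0.00756) for subcutaneous against blood. Without blood mouse 2807 the values were 6.04 and 5.89, and over all 22 alternatives they ran from 4.32 to 6.20 and from 4.12 to 6.04. Cxcl16 overlaps Zmynd15 on the opposite strand over 552 bases and shares 18.5% of its 31-base words with it; Zmynd15 held 409 reads in all.

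Macrophage markers were also higher in fat. Of 10 such markers, 5 rose in gonadal and 7 in subcutaneous against blood eosinophils, and 0 fell. They summed to 788 to 2283 CPM in gonadal, 921 to 3139 CPM in subcutaneous and 320 to 612 CPM in blood libraries, with none at 0 reads over a group. The highest sum of each group belonged to the library with the most Cxcl16, namely mouse 2683 in gonadal fat, mouse 2771 in subcutaneous fat and mouse 2807 in blood. Csf1r gave 347 of the mean of 431 CPM in blood, and the complement gene C1qa had 15.9, 13.9, 0 and 2.33 CPM in the 4 blood libraries. The gonadal library of mouse 2683 and the subcutaneous library of mouse 2771 were also the highest of their groups for Cxcl1, Cxcl9 and Cxcl10, and that of mouse 2771 for Cxcl3. Other members differed: gonadal mouse 2683 was the lowest of its group for Cxcl3 (2.51 CPM). Neither library was the highest of its group for Cxcl2 or Cxcl12. The sum of 6 monocyte markers was highest in gonadal mouse 2683, subcutaneous mouse 2846 and blood mouse 2807. The part of macrophages or monocytes in the reads of these genes was not tested. The plot of members against marker sums shows these values.

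**Figure D2:**
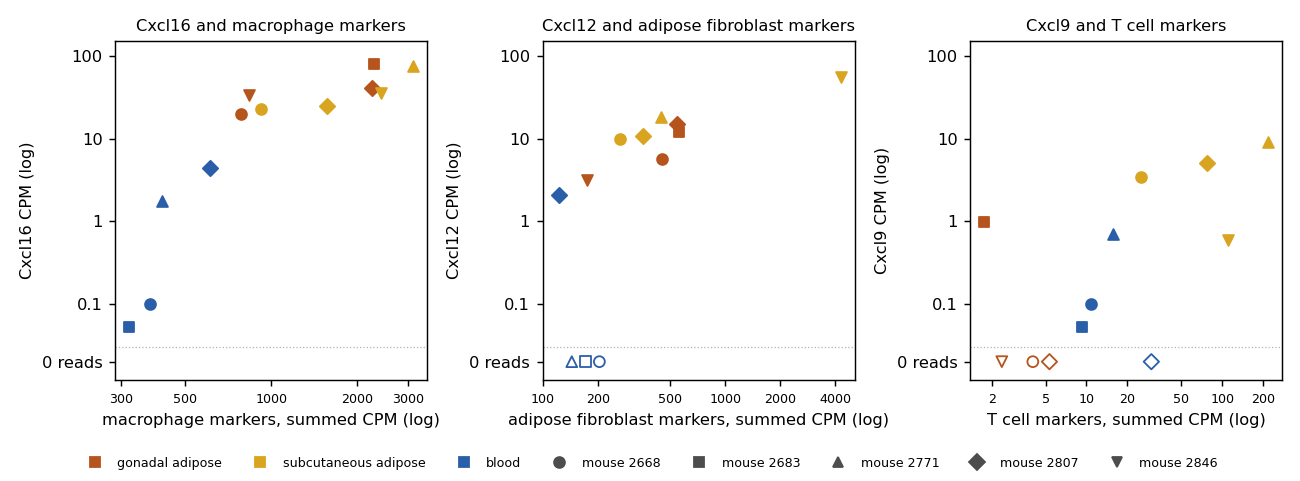
CPM (log scale) of Cxcl16, Cxcl12 and Cxcl9 in each of 12 libraries against the summed CPM (log scale) of macrophage, adipose fibroblast and T cell markers; colours are groups, shapes are mice and open symbols are libraries with 0 reads of the member. The library with the most Cxcl12 (56.0 CPM, subcutaneous, mouse 2846) also has the highest fibroblast sum (4296 CPM).

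Between the 2 depots no member passed the threshold. In gonadal against subcutaneous eosinophils 0 of 7 members rose and 0 fell, where 0% of all tested genes rose and 0.00651% (1 gene) fell with edgeR; at an unadjusted p below 0.05 the counts were 1 member and 1234 genes. All gonadal libraries lay above all subcutaneous ones for 0 of 7 members and 1.94% of all genes, and below them for 0 of 7 members and 1.69% of all genes. DESeq2 called 42 genes higher and 110 lower in gonadal fat, none of them a member. The smallest difference was that of Cxcl2, with a log2 value of 0.05 (95% interval -0.43 to 0.52; edgeR adjusted p = 0.971). Cxcl1 differed by 0.18 (95% interval -1.15 to 1.51), Cxcl16 by 0.15 (-1.73 to 2.04) and Cxcl10 by 0.52 (-0.87 to 1.90). The intervals of Cxcl3 (1.07; -1.18 to 3.32) and Cxcl12 (-1.37; -3.88 to 1.14) were wider, and those of Cxcl1, Cxcl3, Cxcl12 and Cxcl16 each reached past 1 log2 unit on both sides of 0. Cxcl9 was the member at an unadjusted p below 0.05: its log2 difference was -4.09 (95% interval -7.42 to -0.76), the gonadal library was lower in all 3 mice with both depots, and the edgeR adjusted p was 0.531. Without gonadal mouse 2683 the gonadal group had 0 reads of Cxcl9; the fitted values without 1 library ran from -9.13 in that case, which is no bound, to -3.55. The plot of log2 fold changes sets the 3 comparisons side by side.

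**Figure D3:**
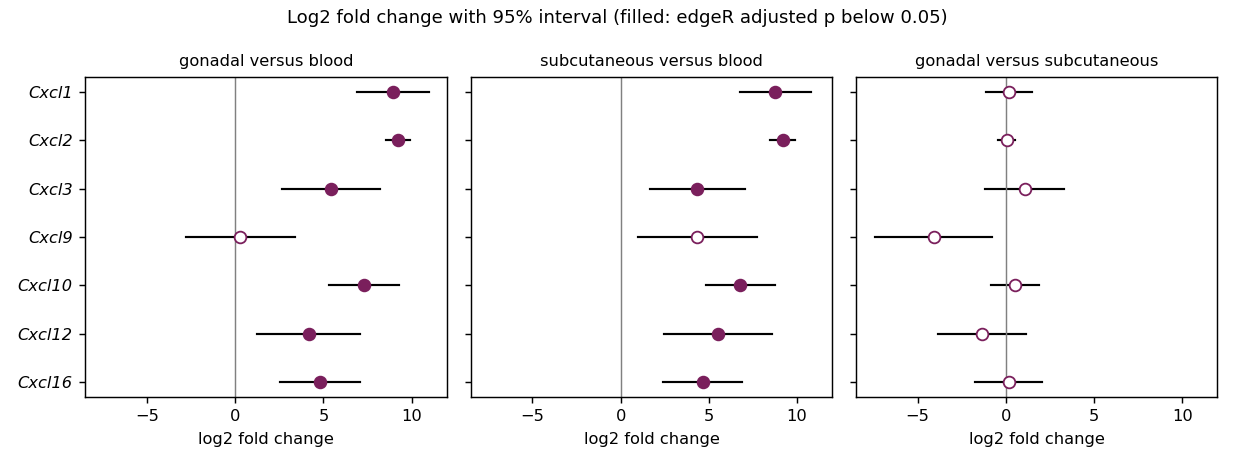
Log2 fold change (horizontal axis) of each CXC ligand in 3 comparisons, gonadal against blood, subcutaneous against blood and gonadal against subcutaneous eosinophils, with bars for 95% intervals and filled points for edgeR adjusted p below 0.05. Cxcl2 has the narrowest intervals (8.54 to 9.93 for gonadal against blood), and in the last panel no point is filled.

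Levels between members were compared per transcript length, as deposited TPM, which scales for length and library. In gonadal eosinophils the order of mean TPM was Cxcl2 (237 ± 66.1), Cxcl1 (33.7 ± 21), Cxcl16 (6.92 ± 3.68), Cxcl10 (3.22 ± 2.12), Cxcl3 (2.25 ± 1.85), Cxcl12 (1.3 ± 0.81) and Cxcl9 (0.028 ± 0.055). In subcutaneous eosinophils it was Cxcl2 (204 ± 107), Cxcl1 (26.5 ± 11.8), Cxcl16 (6.29 ± 3.42), Cxcl12 (2.56 ± 1.51), Cxcl10 (2.34 ± 1.74), Cxcl9 (1.31 ± 1.84) and Cxcl3 (1.12 ± 0.81). In both depots Cxcl2 lay above Cxcl1, and Cxcl1 above Cxcl16, with no overlap of libraries, and in gonadal fat Cxcl12 lay above Cxcl9 in the same way. All other neighbours overlapped. In blood all neighbours overlapped, from Cxcl2 (0.414 ± 0.423 TPM) to Cxcl3 (0.014 ± 0.029 TPM). Cxcl2 made up 74.0% to 91.8% of the summed TPM of the 7 members in gonadal libraries, 62.9% to 90.6% in subcutaneous libraries and 33.5% to 61.7% in blood libraries. Those sums ran from 208 to 355 TPM in gonadal, 99.99 to 357 TPM in subcutaneous and 0.151 to 2.78 TPM in blood libraries.

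The 21 annotated transcripts of the 7 genes include retained-intron forms, and total RNA libraries also capture unspliced RNA. Salmon divides reads between overlapping forms by estimate, so these shares are not fractions of unspliced molecules. For Cxcl10, retained-intron transcripts took 86.8%, 86.5%, 87.0% and 82.1% of its reads in gonadal libraries. The share was 39.3%, 61.3% and 44.9% in the subcutaneous libraries of mice 2807, 2771 and 2668. Among libraries with at least 50 Cxcl10 reads the depots did not overlap in this share. How often genes in general show such a gap was not measured. The subcutaneous library of mouse 2846 was left out because it held 8 Cxcl10 reads, under that minimum. Its share was 100%, above every gonadal library, so the depots overlap where it is kept. The depots overlapped for Cxcl1 (32.9% to 41.6% in gonadal, 16.2% to 50.4% in subcutaneous libraries), Cxcl2 (43.4% to 58.1% and 35.4% to 55.6%) and Cxcl16 (17.9% to 38.9% and 8.90% to 82.8%). For Cxcl3 it was 22.5% to 52.7% in gonadal libraries and 3.37% in the 1 subcutaneous library with enough reads. For Cxcl12 the share was at most 13% in any library with enough reads. In gonadal eosinophils the main coding transcript of Cxcl10 held 136 of 1024 reads, against 241 of 516 in subcutaneous eosinophils. These counts pool libraries: 540 of the 1024 reads came from gonadal mouse 2683 and 284 of the 516 from subcutaneous mouse 2771.

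**Figure D4:**
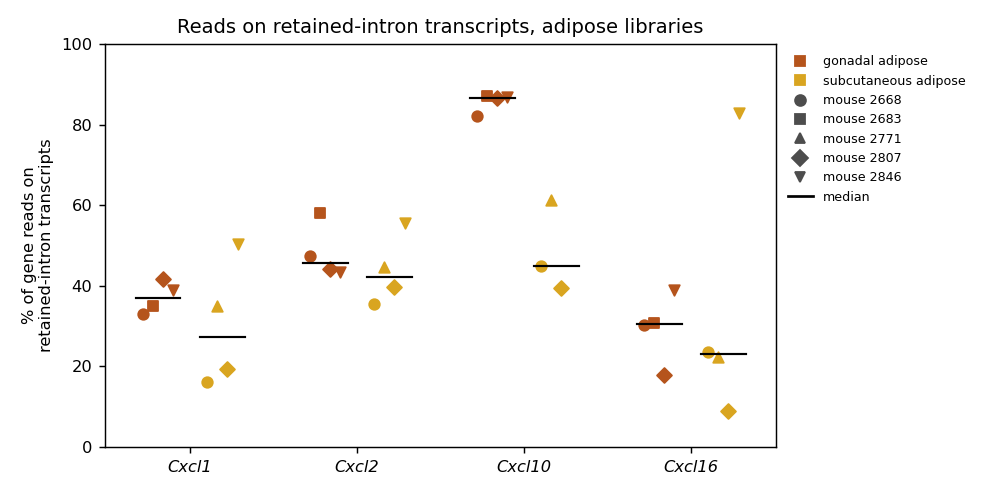
Share of each gene's reads that Salmon assigned to retained-intron transcripts (percent, linear axis) for Cxcl1, Cxcl2, Cxcl10 and Cxcl16 in gonadal and subcutaneous libraries with at least 50 reads; shapes are mice and lines are medians. Cxcl10 is at 82.1% to 87.0% in gonadal libraries and 39.3% to 61.3% in 3 subcutaneous libraries.

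The genes whose pattern over the 12 libraries was most like each member were sought among 6108 genes by the root mean square difference of centred log2 CPM. For Cxcl2 they were Ptgs2 (0.74), the inducible cyclooxygenase, and the orphan nuclear receptors Nr4a3 (0.79) and Nr4a2 (0.87). For Cxcl10 they were Nr4a1 (0.84), Rgs1 (0.89) and the chemokine Ccl3 (0.89). For Cxcl1 they were Pmp22 (1.19), the chemokine Ccl2 (1.25) and C1qtnf1 (1.28), and for Cxcl3 Tgm2 (0.96), Clec4e (1.03) and Osm (1.13). For Cxcl16 they were Igf1 (0.58), the complement gene C1qc (0.61) and Sdc4 (0.64), and for Cxcl12 Trpv4 (0.59), Cd209d (0.61) and the matrix protease Mmp14 (0.69). Cxcl9 had no near match, with Vcam1 (1.66), Abca1 (1.74) and Cd4 (1.76) as the closest. Among the members themselves Cxcl1 and Cxcl2 were the nearest pair (0.94), followed by Cxcl12 and Cxcl16 (1.2). All libraries share the difference between fat and blood, which such a measure includes.

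Of 8 other CXC ligands, 3 had enough reads to be tested. Pf4, a platelet and macrophage chemokine, averaged 42.1 ± 29.3 CPM in gonadal, 70.7 ± 33.3 CPM in subcutaneous and 0.650 ± 0.619 CPM in blood eosinophils. Its log2 fold change was 6.03 (SE 0.88; edgeR adjusted p = 0.000732) for gonadal and 6.77 (SE 0.90; edgeR adjusted p = 0.000470) for subcutaneous against blood, or 6.74 and 7.48 without blood mouse 2807. Of 4 platelet markers Gp9 had 0 reads in all 3 groups; the 4 summed to 9.82 to 78.9 CPM in gonadal, 17.7 to 90.9 CPM in subcutaneous and 25.6 to 50.2 CPM in blood libraries, nearly all of it Itga2b, the 1 tested, which did not pass the threshold. Macrophage markers rose, 5 of 10 in gonadal and 7 of 10 in subcutaneous against blood eosinophils, and 0 fell. The part of platelets or macrophages in the Pf4 reads was not tested. Cxcl14 had 0 reads in blood and was at least 55.3-fold higher in gonadal and at least 174-fold higher in subcutaneous eosinophils (edgeR adjusted p = 0.0165 and 0.00474). Without gonadal mouse 2683 the gonadal bound was 28.1-fold, and without subcutaneous mouse 2846, which held 148 of its 308 subcutaneous reads, the subcutaneous bound was 97.4-fold. The library of subcutaneous mouse 2846 also had the highest adipose fibroblast sum (4296 CPM), and the part of fibroblasts in the Cxcl14 reads was not tested. Cxcl13, a B cell attractant, rose in gonadal eosinophils by 4.06 (edgeR adjusted p = 0.0360), a call lost with the mouse as a block (0.0892), without gonadal mouse 2807 (log2 1.63; 0.305) and without any single blood library (0.0636 to 0.0957). In subcutaneous eosinophils its log2 value was 2.99 (edgeR adjusted p = 0.0962). The list's median log2 fold change was 6.03 (5.79 with Cxcl14 at its bound) in gonadal and 6.77 in subcutaneous against blood eosinophils.

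Of the receptors for these ligands, 5 of 8 listed genes were tested. Cxcr2, the receptor of Cxcl1, Cxcl2 and Cxcl3, averaged 0.894 ± 0.863 CPM in gonadal, 5.84 ± 7.64 CPM in subcutaneous and 56.4 ± 18.1 CPM in blood eosinophils. It fell in both depots, with a log2 fold change of -6.01 in gonadal (edgeR adjusted p = 0.00171; -6.89 without gonadal mouse 2846) and -3.22 in subcutaneous eosinophils (edgeR adjusted p = 0.0189). The subcutaneous call was lost without subcutaneous mouse 2846 (edgeR adjusted p = 0.0513) and with no filter (0.0620), and the value was -4.81 without subcutaneous mouse 2771. Cxcr2 also marks neutrophils, and 7 of 8 tested neutrophil markers fell in each depot. Those 10 markers summed to 193 to 421 CPM in gonadal, 180 to 699 CPM in subcutaneous and 2565 to 4085 CPM in blood libraries. Ly6g and Camp had 0 reads in both fat groups but averaged only 0.943 and 0.168 CPM in blood. Retnlg gave most of the fat sums, with means of 257 of 275 CPM in gonadal and 334 of 367 CPM in subcutaneous libraries. The part of neutrophils in the Cxcr2 reads was not tested. Cxcr4, the receptor of Cxcl12, averaged 230.7 ± 56.0 CPM in gonadal, 271 ± 169 CPM in subcutaneous and 89.8 ± 13.8 CPM in blood eosinophils. It rose by 1.36 (edgeR adjusted p = 0.0187) in gonadal and by 1.59 (edgeR adjusted p = 0.00931) in subcutaneous eosinophils; the gonadal call was lost without blood mouse 2683, blood mouse 2668 or gonadal mouse 2846 (edgeR adjusted p = 0.0522 to 0.0597). Cxcr5 fell in gonadal eosinophils (log2 fold change -6.92; edgeR adjusted p = 0.00475), with -5.22 without blood mouse 2807 and no call with limma (0.0986). Of 5 B cell markers, 5 fell in gonadal and 0 in subcutaneous against blood eosinophils. They summed to 2.20 to 3.24 CPM in gonadal, 8.90 to 50.4 CPM in subcutaneous and 14.8 to 175 CPM in blood libraries. Blood mouse 2807 had the highest of these sums. The part of B cells in the Cxcr5 reads was not tested. Cxcr3, the receptor of Cxcl9 and Cxcl10, had 115 reads over all libraries and did not pass the threshold. The list's median was 1.24 in gonadal and 1.59 in subcutaneous against blood eosinophils.

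Counts of the next lists stand beside 15.4% of all tested genes that rose in each depot, 11.6% that fell in gonadal and 11.4% that fell in subcutaneous against blood eosinophils. Of 28 genes that lead to or from NF-kB, 17 rose and 4 fell in gonadal, and 16 rose and 5 fell in subcutaneous against blood eosinophils, with medians of 1.35 and 1.40. The cytokine Il1a rose by 6.31 in gonadal and 6.32 in subcutaneous eosinophils (7.89 in both without blood mouse 2807), the feedback inhibitor Tnfaip3 by 4.42 and 4.95, and Nfkbiz, a nuclear cofactor, by 3.94 and 4.32. The genes that fell were Il1rap, Myd88, Traf6 and Ikbkb in both depots and Irak4 in subcutaneous eosinophils. Of 20 interferon pathway genes, 2 rose and 7 fell in gonadal, and 2 rose and 4 fell in subcutaneous against blood eosinophils, with medians of -0.34 and -0.21. With the mouse as a block 3 of the list fell in gonadal eosinophils. Irf9, a subunit of the interferon-activated ISGF3 complex, fell, with log2 fold changes of -1.35 in gonadal and -1.24 in subcutaneous eosinophils. Irf7 (-1.04) fell in gonadal eosinophils, a call lost with the block (edgeR adjusted p = 0.0502) and the length offset (0.0542). Isg15, an interferon-induced ubiquitin-like protein, had the largest change of the list and rose by 2.51 in gonadal and 2.29 in subcutaneous eosinophils (1.53 without subcutaneous mouse 2668), calls that the block removed (edgeR adjusted p = 0.0540 and 0.0767). In subcutaneous eosinophils Ifngr2 fell (-0.85), a call lost with the length offset (-0.11; edgeR adjusted p = 0.849) and with subcutaneous mouse 2846 and blood mouse 2807 left out (0.0559). Ifnar1 rose there (0.66), a call lost with library size alone (edgeR adjusted p = 0.0869), with coding transcripts alone (0.31; 0.126) and without blood mouse 2668 (0.0623).

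Of 9 genes that control the decay of chemokine transcripts, 3 rose and 1 (Auh) fell in each depot, with medians of 0.27 in gonadal and 0.080 in subcutaneous eosinophils. The fall of Auh in subcutaneous eosinophils (edgeR adjusted p = 0.0447) was lost in 7 of 12 fits without a library and under 4 of the other alternatives. These were RLE scaling, no filter, library size without mitochondrial ribosomal RNA, and coding transcripts alone; the libraries were any blood library, gonadal mouse 2668, and subcutaneous mouse 2771 or 2668. Zfp36, which binds AU-rich elements and speeds decay, rose by 3.30 in gonadal and 3.63 in subcutaneous eosinophils. Its relative Zfp36l1 rose by 2.62 and 3.08, and the RNase Zc3h12a by 2.06 and 1.94. Of 10 genes of chemokine shedding and cleavage, 3 rose and 2 fell in gonadal, and 2 rose and 2 fell in subcutaneous eosinophils, with medians of 0.15 and -0.17. Adam10 and Adam17, which shed Cxcl16, did not pass the threshold in either comparison. The aminopeptidase Anpep rose by 5.21 in gonadal eosinophils (7.81 without blood mouse 2807, 4.13 without gonadal mouse 2683). The carboxypeptidase Cpd fell (-1.31 in gonadal and -1.26 in subcutaneous eosinophils). Mmp2 had 0 reads in blood and was at least 390-fold higher in gonadal and at least 448-fold higher in subcutaneous eosinophils, calls that the block removed (edgeR adjusted p = 0.0602 and 0.0634). Without gonadal mouse 2683 the gonadal bound was 252-fold, and without subcutaneous mouse 2846 the subcutaneous bound was 312-fold. Mmp14 rose by 5.72 in subcutaneous eosinophils (8.05 without blood mouse 2807). Adipose fibroblast markers rose in both depots too (9 and 8 of 10), and subcutaneous mouse 2846, with the highest fibroblast sum, also had the most Mmp2, at 84.1 CPM; the part of fibroblasts in the Mmp2 and Mmp14 reads was not tested. Of these 6 lists, no gene passed the threshold between the depots; Auh, Isg15 and the NF-kB genes that fell were named after their values were seen.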

How the data were processed

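RNA of 12 libraries was quantified before deposit; the tools in the submitters' processing notes are Salmon 1.6.0, Trim Galore 0.6.4 and DESeq2 1.30.1, with the build mm10. Each deposited table gives, per the file headers, the estimated count (the authors' expected counts, not always whole), the TPM, and transcript lengths, here another deposited quantity, for 140992 transcripts. The annotation release and strand setting are not given in the sources used here. GENCODE M21 symbols matched 139791 transcripts; the 1201 others held 0.351% to 0.538% of a library's reads and were left out.

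Counts were summed per gene, rounded and fitted with edgeR 4.0.16 in R 4.3.3 (robust quasi-likelihood, TMM, filterByExpr by group), all 12 libraries together with the group as the only term. P-values were adjusted over 15367 genes by Benjamini and Hochberg, and 0.05 was the threshold. Dispersion over all genes came to a biological coefficient of variation of 0.545. The SE is the log2 fold change divided by the square root of F. CPM used TMM-scaled library sizes, errors are SD over 4 libraries, and TPM was used only to order levels between genes. Bounds and floors use 3 counts and cover counting error only. Depth was 4379954 to 23734940 reads; every pair of libraries differed in at least 19357 genes. In simulated counts for gonadal against blood (14913 genes) the fit recovered 8% of 2-fold, 52% of 4-fold, 80% of 8-fold and 75% of 16-fold changes; the comparison of depots was not simulated.

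Mouse numbers mark the animal, so libraries pair by design. Deviations from group means correlated at -0.111 to 0.358 over 9 same-mouse pairs (mean 0.0844, against -0.0187 over 39 others). No sequencing batch is named. Alternatives were RLE scaling, library size alone, no filter, DESeq2 1.42.0, limma 3.58.1 (voom, quality weights), the mouse as a block, library size without mitochondrial ribosomal RNA, a length offset, coding transcripts alone, 2 libraries left out together, and each library left out in turn. Members and gene lists were chosen with earlier results of these data known. The promoter motifs were shortened to 9 letters after matches had been seen. Up to 3 called genes of each list are named, those with the largest change whose higher group averaged 20 CPM or more; any detected CXC ligand or receptor may be named. A gene that this rule names is not reported here.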

Additional observations from a re-analysis of the deposited data

Results flagged for a closer look

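In 4 of 21 groups of 4 libraries, 1 member's highest library stood apart from the other 3 by more than Dixon's critical value at the 95% level; chance flags about 1 group in 20 where values are normally distributed. In 3 of the 4 the other libraries had 0 reads, so that any value above 0 would be flagged and that rate does not apply. Cxcl3 had 0.611 CPM in the blood library of mouse 2771 and 0 in the other blood libraries. Cxcl9 had 0.704 CPM in the same blood library, where the next highest blood value was 0.0992 CPM. Cxcl9 had 0.982 CPM (25 reads) in the gonadal library of mouse 2683 and 0 in the other gonadal libraries. Cxcl12 had 2.08 CPM in the blood library of mouse 2807 and 0 in the other blood libraries.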

How the results depend on the processing

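Of the 7 members, 5 or 6 were called higher in gonadal and 5 to 7 in subcutaneous against blood eosinophils over 22 alternatives, and 0 between the depots. Cxcl1, Cxcl2, Cxcl10 and Cxcl16 passed the threshold in both comparisons with blood under all 22. Library size alone moved the median of all genes from 0.066 to -0.058 for subcutaneous against blood and from -0.013 to 0.13 for gonadal against subcutaneous. Values below are log2 fold changes or gene counts, adjusted p in brackets, and where 1 library decides a value the cause was not tested.

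Cxcl12 in gonadal against blood lost its call with no filter (4.19; 0.107), more genes then being tested, with the replicate block (4.84; 0.0598) and with coding transcripts alone (4.07; 0.0510), and ran from 3.7 to 10.16 without 1 library. Cxcl9 in gonadal against blood turned to -1.88 with voom and -0.10 without the 2 libraries left out together, and ran from -4.80 to 2.18 without 1 library. Cxcl9 in subcutaneous against blood gained a call with DESeq2 (4.41; 0.0167), voom (4.75; 0.00212), the replicate block (5.99; 0.0215) and the length offset (5.74; 0.0392), and ran from 3.77 to 6.27 without 1 library. Cxcl3 there ran from 3.90 to 8.74, fitted values against a group at 0 being no bound. The replicate block changed no other member's call. Between depots Cxcl2 turned to -0.062 (voom), -0.14 (2 libraries out) and -0.15 (coding alone), Cxcl16 to -0.0029 (length offset) and Cxcl10 to -1.25 (coding alone). Without 1 library Cxcl2 ran from -0.14 to 0.16, Cxcl16 from -0.30 to 0.66 and Cxcl1 from -0.38 to 0.55.

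In gonadal against blood, receptors higher numbered 1 (2 with 2 libraries out, 0 to 1 without 1 library) and lower 2 (1 with voom); interferon genes lower numbered 7 (4 with library size alone, 3 with the block, 3 to 7 without 1 library). In subcutaneous against blood, receptors lower numbered 1 (0 with no filter and with 2 libraries out, 0 to 1 without 1 library), NF-kB genes lower 5 (3 with the length offset, 3 to 5 without 1 library), interferon genes higher 2 (1 with library size or coding alone, 1 to 3 without 1 library) and lower 4 (1 with the offset), decay genes lower 1 (0 with RLE, no filter, no mitochondrial ribosomal RNA or coding alone, 0 to 1 without 1 library) and shedding genes higher 2 (1 with the block).

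Eosinophil markers near 0 changed sign: in gonadal against blood Epx (-0.14 with 2 libraries out, -0.058 with the offset, -0.18 to 0.28 without 1 library). In subcutaneous against blood these were Epx (0.047 with voom, 0.088 with 2 libraries out, -0.64 to 0.26 without 1 library), Il5ra (0.012 with RLE, 0.011 with DESeq2, 0.090 with voom, 0.17 with 2 libraries out, 0.011 without mitochondrial ribosomal RNA, 0.043 with the offset, -0.23 to 0.18 without 1 library), Siglecf (-0.096 to 0.42 without 1 library) and Adgre1 (-0.012 with the offset, -0.074 to 0.45 without 1 library). Depth limits low members: 3 reads are 0.898 CPM in subcutaneous mouse 2846, and blood held 6 to 18 reads of Cxcl1, Cxcl3, Cxcl9 and Cxcl10 in all.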

Other observations

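Ligands and receptors with too few reads to be tested were as follows. Cxcl5 had 19 reads over all libraries, Cxcl11 had 11 and the platelet chemokine Ppbp had 134, while Cxcl15 and Cxcl17 had 0. Ppbp averaged 0.321 CPM in gonadal, 0.151 CPM in subcutaneous and 1.21 CPM in blood libraries. Cxcr6, the receptor of Cxcl16, had 15 reads and Cxcr1 had 22. The decoy receptor Ackr1 had 13 reads. The tested decoy receptor Ackr3, which binds Cxcl12, averaged 1.6 CPM in gonadal, 3.45 CPM in subcutaneous and 0.237 CPM in blood libraries and did not pass the threshold.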
